A study of Mus musculus with 16 samples.

Results

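The Kruppel-like factors described here are 9 genes, Klf1, Klf2, Klf3, Klf6, Klf9, Klf10, Klf11, Klf13 and Klf16, taken by symbol from a table of read counts for 23410 gene symbols. All 9 were in the table and 8 of them had enough counts to be tested, among 10080 genes tested in all. Klf2 had no counts in any library. The cells were G1E-ER4, a mouse erythroid line without GATA1 protein of its own, with a fusion of GATA1 and the hormone-binding domain of the estrogen receptor in its place. The hormone beta-estradiol lets this fusion enter the nucleus. The groups were 0, 12.5, 25, 50, 75, 100, 150 and 200 nM beta-estradiol with 2 replicates at each dose, 16 libraries in all. The untreated groups carry the fusion gene too, and no group without it was analysed here, so effects of the hormone itself and of nuclear GATA1 cannot be told apart. Serum, erythropoietin and stem cell factor were in the medium of all groups, and how long the cells were exposed is not stated in the labels. The labels do not say whether the 2 replicates of a dose were separate cultures, so the p-values measure the spread between these libraries, which may be technical.

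Kruppel-like factors are zinc finger proteins that bind CACCC boxes and other GC-rich DNA in promoters and enhancers, and several members compete for the same sites. By the partner proteins they recruit, they fall into activators (Klf1, Klf2, Klf6), repressors that use the corepressor CtBP (Klf3) and factors that recruit the SIN3A histone deacetylase complex (Klf9, Klf10, Klf11, Klf13, Klf16). Klf1, the erythroid Kruppel-like factor, turns on adult beta globin and many other red cell genes, and GATA1 is known to bind at the Klf1 gene.

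The shallowest library, replicate 2 of 150 nM, held 9393156 counts and the deepest, replicate 2 of 12.5 nM, held 15802510. The labelled erythroid cell type had its markers in every library, with a summed level of the 8 markers in the table between 2021 and 2031 CPM (counts scaled to a common library total) at 0 nM and between 27912 and 28408 CPM with 200 nM. These 8 include Klf1, itself a member described here, at 220 CPM at 0 nM and 658 CPM with 200 nM. The largest entry at 0 nM was Tfrc, at 1037 CPM. Of 7 megakaryocyte markers the sum went from between 10.0 and 11.3 CPM to between 432 and 445 CPM, mostly Itgb3 (404 CPM at 200 nM). All 4 of these that could be tested were higher at 200 nM (edgeR adjusted p of 0.000422 or less), as were 40.5% of all genes tested. The log2 fold changes of these 4 were 5.70 ± 0.07 for Itgb3, 4.15 ± 0.19 for Gp9, 4.13 ± 0.36 for Pf4 and 1.39 ± 0.35 for Itga2b. Pf4, at 0.373 CPM at 0 nM, could reach the counts needed for testing only at higher doses. The megakaryocyte marker Gp1bb was at 0 in all libraries. Of 7 macrophage and granulocyte markers the sum went from between 0.552 and 1.20 CPM to between 3.22 and 3.41 CPM. Both that could be tested, Fcgr3 and Cd68, were higher at 200 nM (2.70 ± 0.73 and 1.35 ± 0.44 on the log2 scale, edgeR adjusted p = 0.000875 and 0.00501), as were 40.5% of all genes tested. Fcgr3 had at most 15 counts in a library, with 0.156 CPM at 0 nM and 1.05 CPM at 200 nM. It could reach the counts needed for testing only at doses where it was high, so its call was in part set by that. Lyz2, Mpo and Emr1 were at 0. Of 7 endothelial markers the sum reached 1.05 CPM at most, with Cdh5, Emcn and Vwf at 0, and Cd3e, Cd8a and Ms4a1 among 8 lymphocyte markers and Col1a2, Col3a1 and Dcn among 5 fibroblast markers were at 0. The ribosomal RNA entry Rn45s took between 9.53% and 9.61% of the counts at 0 nM and between 14.6% and 15.3% at 200 nM. The part of these marker and Rn45s changes in the results below was not tested. In these bulk samples, fewer cells of a type and less RNA per cell cannot be told apart.

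The stretches upstream of 4 members are shown so that genes that rose can be read beside one that fell: Klf1, Klf13 and Klf6 were the highest members at 200 nM, and Klf9 fell. Each is taken from RefSeq promoter windows on GRCm38.p6 and runs 5′ to 3′ on the gene's strand, ending just before the first base that GENCODE M21 annotates as transcribed. The stretches are chr8:84901732-84901927 on the plus strand for Klf1, chr7:63938916-63939165 on the minus strand for Klf13, chr13:5861239-5861481 on the plus strand for Klf6 and chr19:23140976-23141225 on the plus strand for Klf9. Capitals mark a GATA word, which is AGATAA or the form AGATAG, or the same with T as the first base, giving TGATAA and the form TGATAG, or the GC-rich word CCNCNCCC, on either strand, where the match lies wholly in the printed stretch.
Klf1: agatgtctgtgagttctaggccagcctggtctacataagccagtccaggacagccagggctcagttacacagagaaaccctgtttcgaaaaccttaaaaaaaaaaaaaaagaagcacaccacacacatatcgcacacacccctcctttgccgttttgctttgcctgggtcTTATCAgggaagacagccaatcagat
Klf13: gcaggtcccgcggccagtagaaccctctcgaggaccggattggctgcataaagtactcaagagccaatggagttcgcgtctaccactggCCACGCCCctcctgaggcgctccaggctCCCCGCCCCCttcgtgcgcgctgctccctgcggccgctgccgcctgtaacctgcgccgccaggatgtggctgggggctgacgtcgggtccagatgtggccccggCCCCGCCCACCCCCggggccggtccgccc
Klf6: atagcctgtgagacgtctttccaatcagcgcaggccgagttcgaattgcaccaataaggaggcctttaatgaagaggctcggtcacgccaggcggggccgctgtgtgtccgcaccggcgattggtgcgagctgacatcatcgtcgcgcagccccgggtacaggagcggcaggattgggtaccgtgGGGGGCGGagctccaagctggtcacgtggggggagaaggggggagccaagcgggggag
Klf9: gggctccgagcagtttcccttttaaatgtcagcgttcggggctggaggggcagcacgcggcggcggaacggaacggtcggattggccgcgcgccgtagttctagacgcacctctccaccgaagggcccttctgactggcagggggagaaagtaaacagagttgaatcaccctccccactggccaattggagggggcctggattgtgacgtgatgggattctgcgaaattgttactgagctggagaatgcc

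Windows of 250 bases before the RefSeq start were found for 7 of the 9 members, Klf1, Klf2, Klf3, Klf6, Klf9, Klf11 and Klf13. Klf1 held the only GATA word among them, TGATAA on the minus strand, from 80 to 75 bases before the RefSeq start. At least 1 GATA word was present in 26.5% of all 32851 windows of that length. The word CCNCNCCC was in 5 of the 7 windows, with 10 matches in Klf3, 5 in Klf13, 5 in Klf11, 4 in Klf2 and 2 in Klf6, some overlapping each other, and in 45.9% of all windows. Klf1 and Klf9 had no match. The erythroid CACCC word CCACACCC was in none of the 7 and in 3.20% of all windows. The 7 windows differed in base composition, from 49.2% G and C in Klf1 to 78.4% in Klf3. These matches are letters in a window and do not show binding.

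At 200 nM against 0 nM, the comparison that asks what the highest dose did, Klf1, Klf3, Klf6, Klf11 and Klf13 rose and Klf9, Klf10 and Klf16 fell, which makes 5 higher and 3 lower of the 8 tested members. Of all genes tested, 40.5% were called higher and 39.5% lower in that comparison (quasi-likelihood test of edgeR, p under 0.05 after adjustment over all genes), so that most genes moved and a call alone does not set the members apart. The sizes ran from a 14.5-fold rise of Klf6 to a 7.01-fold fall of Klf10. The median log2 fold change was 1.05 over the 8 tested members and 0.02 over all genes tested. Counts were scaled between libraries by TMM, and changes are relative to that scaling. Scaling by library size alone put the median of all genes at 200 nM at -0.36 on the log2 scale, with 2819 genes called higher and 5397 lower in place of 4086 and 3977, and left every tested member's direction at 200 nM as it was, while Klf11 was then no longer called. All comparisons with 0 nM share the same 2 untreated libraries.

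**Figure D1:**
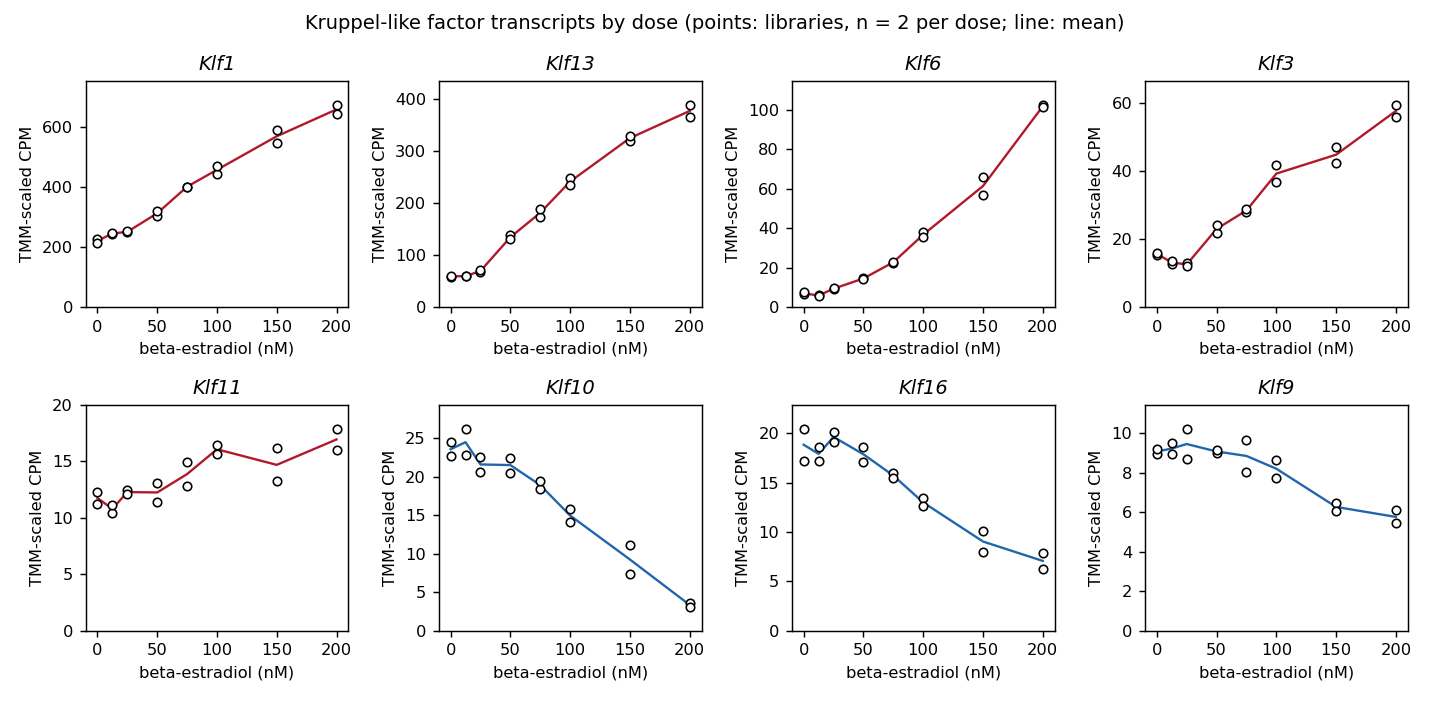
Level of each tested Kruppel-like factor (TMM-scaled CPM, linear axis from 0) against the dose of beta-estradiol in nM; points are libraries, 2 per dose, and lines join the means. The 5 genes drawn in red had higher means at 200 nM than at 0 nM (Klf6 from 7.0 to 102 CPM) and the 3 in blue lower ones (Klf10 from 23.6 to 3.36 CPM).

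Among the activators, Klf1 lies on chromosome 8, 84901928 to 84905291 on the plus strand (GENCODE M21, GRCm38), with 3 exons in its single annotated transcript. Its levels in the 2 libraries of each dose were 227 and 214 CPM without estradiol, 243 and 247 with 12.5 nM, 249 and 252 with 25 nM, 304 and 321 with 50 nM, 401 and 401 with 75 nM, 443 and 471 with 100 nM, 546 and 591 with 150 nM, and 672 and 644 with 200 nM. Both libraries at every dose lay above both libraries at 0 nM. The rise at 200 nM was 2.98-fold, a log2 fold change of 1.58 ± 0.04 (standard error, n = 2 per dose, edgeR adjusted p = 3.53e-34). It was first called at 25 nM, at 0.18 ± 0.04 (adjusted p = 0.0025), although without 0 nM replicate 2 it was 0.15 and not called (adjusted p = 0.154). Klf1 then rose at each of the 5 steps from 25 nM upward, by between 0.19 ± 0.04 from 75 to 100 nM and 0.36 ± 0.04 from 50 to 75 nM. With library size alone the steps to 100 and 200 nM were smaller, at 0.12 and 0.10, and still called.

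Klf6, an activator found in many tissues and quickly induced by growth and injury signals, lies on chromosome 13, 5861482 to 5870394 on the plus strand. It had 6.56 and 7.44 CPM without estradiol, 6.03 and 5.72 with 12.5 nM, 9.03 and 9.64 with 25 nM, 14.8 and 14.2 with 50 nM, 22.5 and 23.0 with 75 nM, 38.2 and 35.3 with 100 nM, 65.8 and 57.0 with 150 nM, and 102 and 101 with 200 nM. From 25 nM upward no library overlapped with those of the dose before. The log2 fold change at 200 nM was 3.86 ± 0.10 (adjusted p = 4.73e-35), the largest in size among the 8 tested members. Against 0 nM the change at 25 nM was 0.41 ± 0.13 and did not pass (adjusted p = 0.0698), whereas the step from 12.5 to 25 nM did, at 0.67 ± 0.14 (adjusted p = 0.00338). Without 12.5 nM replicate 2, or without 25 nM replicate 2, that step was not called, with an adjusted p of up to 0.0724. Each later step was called too, the last from 150 to 200 nM at 0.72 ± 0.08 (adjusted p = 9.42e-11).

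Klf2, known from endothelial cells, resting T cells and embryonic red cells (chromosome 8, 72319033 to 72321656), had 0 counts in all 16 libraries. With 3 counts as the limit, this allows between 0.175 and 0.351 TMM-scaled CPM in a single library, and 0.0132 CPM over the 226720373 unscaled counts of all libraries. Such limits cover counting error only. Whether reads of Klf2 could be counted with the annotation the authors used is not known, so the 0 does not show that the gene was silent, and no change of it could be measured. No other GENCODE gene overlaps its exons.

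Klf3, a repressor that works through CtBP and is known as a target of KLF1 in red cells, lies on chromosome 5, 64803388 to 64832901 on the plus strand. Its levels were 15.3 and 16.1 CPM without estradiol, 12.6 and 13.7 with 12.5 nM, 13 and 12.1 with 25 nM, 21.8 and 24.2 with 50 nM, 28.1 and 28.8 with 75 nM, 36.9 and 41.8 with 100 nM, 47.3 and 42.5 with 150 nM, and 56.1 and 59.5 with 200 nM. All 4 libraries at 12.5 and 25 nM lay below both libraries at 0 nM, but those differences did not pass the test (-0.25 ± 0.11, adjusted p = 0.517, and -0.32 ± 0.11, adjusted p = 0.106). At 50 nM Klf3 was higher by 0.56 ± 0.10 (adjusted p = 1.84e-05), and at 200 nM by 1.88 ± 0.09, a 3.69-fold rise (adjusted p = 2.65e-23). Its largest step was from 25 to 50 nM, at 0.87 ± 0.11 (adjusted p = 4.30e-09). The opposite-strand gene Gm20033 overlaps 404 bases, 3.60%, of its exons, and reads there cannot be assigned to a strand.

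The number of Klf1 counts per Klf3 count does not depend on the scaling of libraries. It was 14.9 and 13.3 in the libraries without estradiol, 19.3 and 18.0 with 12.5 nM, 19.1 and 20.9 with 25 nM, and 13.9 and 13.3 with 50 nM. It then lay between 10.8 and 14.3 in the 8 libraries from 75 nM upward. The 4 libraries at 12.5 and 25 nM had the highest ratios of all 16, with no test of that difference.

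The factors that recruit SIN3A did not move one way. Klf13, known as an activator of globin reporter genes and as a late factor in T cells, lies on chromosome 7, 63886351 to 63938915 on the minus strand. It had 58.7 and 59.7 CPM without estradiol, 59.0 and 60.2 with 12.5 nM, 68.4 and 70.6 with 25 nM, 138 and 131 with 50 nM, 174 and 189 with 75 nM, 248 and 235 with 100 nM, 321 and 330 with 150 nM, and 389 and 367 with 200 nM. The libraries at 0 and 12.5 nM overlapped, and from 25 nM upward no dose overlapped with its neighbours. Klf13 rose by 2.67 ± 0.05 on the log2 scale at 200 nM, 6.38-fold (adjusted p = 2.79e-41). The rise was called first at 25 nM, at 0.23 ± 0.05 (adjusted p = 0.00607), and was lost there without 0 nM replicate 1 or without 25 nM replicate 2 (adjusted p up to 0.0953). The largest step was from 25 to 50 nM, at 0.95 ± 0.05 (adjusted p = 5.86e-21).

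Klf10, an early gene induced by TGF-beta, lies on chromosome 15, 38291463 to 38300706 on the minus strand. Its levels were 24.5 and 22.7 CPM without estradiol, 26.2 and 22.8 with 12.5 nM, 20.6 and 22.6 with 25 nM, 20.6 and 22.5 with 50 nM, 18.4 and 19.4 with 75 nM, 15.8 and 14.1 with 100 nM, 11.2 and 7.38 with 150 nM, and 3.59 and 3.13 with 200 nM. The libraries at 0 and 12.5 nM overlapped, and those from 75 nM upward lay below all libraries of lower doses. Klf10 fell by 2.81 ± 0.17 on the log2 scale at 200 nM (adjusted p = 2.02e-20). It was called lower from 75 nM, at -0.32 ± 0.12 (adjusted p = 0.0173, and up to 0.121 without 0 nM replicate 1 or 75 nM replicate 1). The last step, from 150 to 200 nM, was the largest, at -1.51 ± 0.20 (adjusted p = 3.40e-08), although the 150 nM libraries differed from each other and the 200 nM libraries held only 39 and 37 counts.

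Klf16, a repressor first described in the brain (chromosome 10, 80567124 to 80577321, minus strand), had 17.2 and 20.4 CPM without estradiol, 18.6 and 17.2 with 12.5 nM, 19.1 and 20.2 with 25 nM, 18.6 and 17.1 with 50 nM, 16 and 15.4 with 75 nM, 13.4 and 12.6 with 100 nM, 8.0 and 10.1 with 150 nM, and 6.26 and 7.88 with 200 nM. The 8 libraries up to 50 nM lay between 17.1 and 20.4 CPM, and from 75 nM upward each dose lay below all lower doses. It fell by 1.41 ± 0.14 on the log2 scale at 200 nM (adjusted p = 3.13e-12) and was called from 100 nM, at -0.53 ± 0.12 (adjusted p = 0.000205). Of its steps only that from 100 to 150 nM was called, at -0.55 ± 0.15 (adjusted p = 0.0025), and without 150 nM replicate 1 it was not (-0.37, adjusted p = 0.146). With library size alone the steps from 75 to 100 nM (-0.34, adjusted p = 0.0392) and from 150 to 200 nM (-0.43, adjusted p = 0.0414) were called too.

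Klf9, a repressor induced by steroid and thyroid hormones (chromosome 19, 23141226 to 23168134, plus strand), had libraries between 7.75 and 10.2 CPM at all doses up to 100 nM. It then had 6.46 and 6.09 CPM with 150 nM and 5.44 and 6.10 with 200 nM, below every library up to 100 nM, and these last 2 doses overlapped. The fall was -0.53 ± 0.17 at 150 nM (adjusted p = 0.00567) and -0.65 ± 0.17 at 200 nM (adjusted p = 0.00069). Library size alone moved these to -0.80 and -1.03. No single step was called for Klf9, but with library size alone that from 100 to 150 nM was (-0.46, adjusted p = 0.0306). Klf11, a TGF-beta-inducible relative of Klf10 (chromosome 12, 24651274 to 24662789, plus strand), had 11.2 and 12.3 CPM without estradiol, 15.7 and 16.5 with 100 nM, 16.1 and 13.2 with 150 nM, and 17.9 and 16 with 200 nM. Its rise of 0.53 ± 0.13 at 200 nM (adjusted p = 0.00038) was the smallest in size among the tested members, and with library size alone it was 0.14 and not called (adjusted p = 0.31), nor was Klf11 then called at 100 nM (0.26, adjusted p = 0.0686) or 150 nM (0.07, adjusted p = 0.65). At 150 nM it was 0.34 ± 0.14 (adjusted p = 0.0223), and without 0 nM replicate 1 or 150 nM replicate 1 it was not called (down to 0.17, adjusted p up to 0.405). No step between neighbouring doses was called for Klf11 either.

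**Figure D2:**
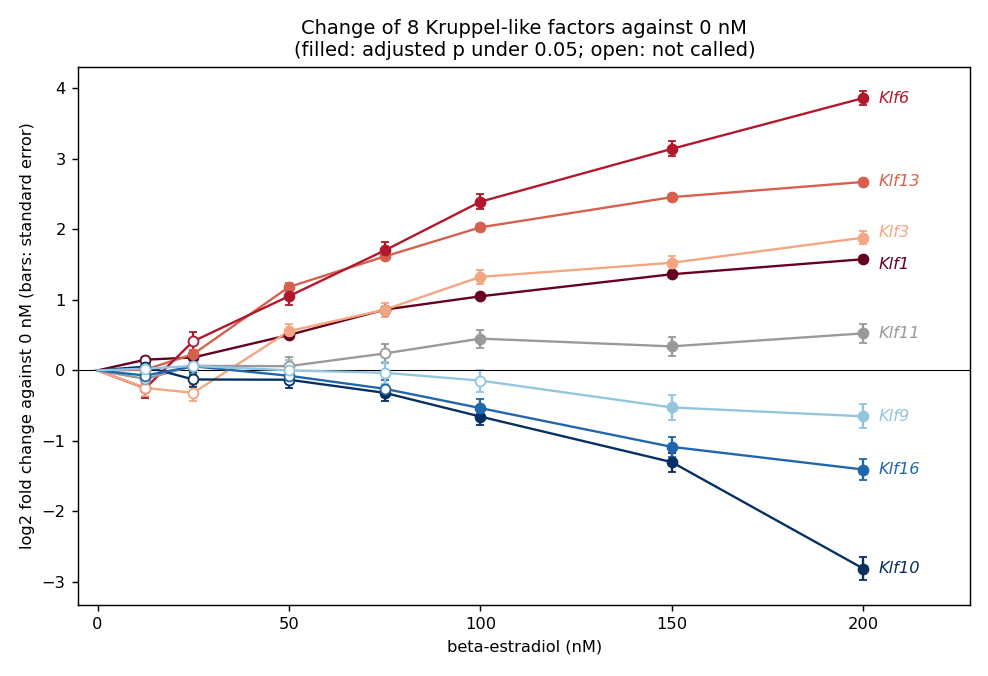
Log2 fold change of 8 Kruppel-like factors against 0 nM (vertical axis) by dose of beta-estradiol in nM (horizontal axis), with standard errors as bars, filled points for adjusted p under 0.05 and open points for values not called. Klf6 ended at 3.86 and Klf10 at -2.81, and at 12.5 nM every point was open.

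The members were first called at different doses. A call depends on the precision of a gene's values as well as on the size of its change. At 25 nM Klf6 was at 0.41 ± 0.13 and not called, while Klf1 was called at 0.18 ± 0.04. The order of calls is therefore not an order of response. At 12.5 nM 0 of 8 tested members were called with edgeR, with 2 at an unadjusted p under 0.05. This stood beside 0.278% of all genes called higher and 0.228% called lower. DESeq2 called 0 members there too, but over the comparisons it gave some member values no adjusted p, and such values cannot be called. At 25 nM Klf1 and Klf13 were higher, beside 3.0% of all genes called higher, and none of the 8 was lower, beside 1.02%. At 50 nM Klf1, Klf3, Klf6 and Klf13 were higher and none lower, while 18.8% of all genes were called higher and 14.7% lower. Klf10 was added as lower at 75 nM (4 higher and 1 lower, with 29.0% and 26.9% of all genes), and Klf16 as lower and Klf11 as higher at 100 nM (5 higher and 2 lower, with 34.1% and 32.5%). Klf9 was added as lower at 150 nM (5 higher and 3 lower, with 37.7% and 36.6%). An F test over all doses called 8 of 8 tested members and 86.3% of all genes tested. With library size alone it called 7 of 8, without Klf11 (adjusted p = 0.151).

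Between neighbouring doses, the members called were 2 higher and 0 lower from 12.5 to 25 nM (0.893% and 0.198% of all genes tested), 4 and 0 from 25 to 50 nM (14.1% and 12.1%), and 4 and 0 from 50 to 75 nM (16.6% and 15.8%). They were 4 higher and 1 lower from 75 to 100 nM (14.7% and 12.8%), 3 and 2 from 100 to 150 nM (20.6% and 20.2%), and 4 and 1 from 150 to 200 nM (19.4% and 19.9%). Klf6 and Klf13 were called at each of the 6 steps from 12.5 nM upward. The first of these steps was lost for Klf13 with library size alone (0.19, adjusted p = 0.0915) and without any 1 of the 4 libraries of 12.5 and 25 nM (adjusted p up to 0.281). Klf10 and Klf16, which fell, had no called step below 75 nM.

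No tested member passed the test for being higher, or lower, at an intermediate dose than at both 0 and 200 nM. These tests called 0 of 8 members at each of the 6 intermediate doses with edgeR, and at most 1 at an unadjusted p under 0.05, for a dip at 12.5 nM and a dip at 25 nM. Of all genes tested, the share called was 0 for a peak at 12.5 nM, 0.268% at 25 nM, 1.14% at 50 nM, 1.61% at 75 nM, 1.5% at 100 nM and 0.556% at 150 nM. For a dip it was 0.0992%, 0.0694%, 0.754%, 0.873%, 0.704% and 0.149% at the same doses in that order. The dip of Klf3 at 25 nM had an adjusted p of 0.847.

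The midpoint dose, at which a gene's mean log2 CPM lay midway between its values at 0 and 200 nM, was read for the 6 members whose called change reached 2-fold at the highest dose. It was 58.9 nM for Klf13 (57.2 to 60.4 nM with each library left out in turn), 69.9 nM for Klf1 (68.1 to 71.0), 73.9 nM for Klf3 (72.2 to 75.4) and 81.3 nM for Klf6 (80.4 to 82.1). On this log2 scale the members that fell reached theirs later, at 116 nM for Klf16 (109 to 124) and 150 nM for Klf10 (136 to 159). Library size alone moved the 4 rising genes to between 52.1 and 79.0 nM and kept that order. On the log2 scale the midpoint of a gene that ends far below its start lies at a low level, and on another scale it would lie elsewhere.

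Levels between genes were compared as CPM per kilobase of exon, with exon lengths from GENCODE M21, which need not be the annotation the authors counted on. At 0 nM Klf1 stood at 144 ± 6 CPM per kilobase (SD, n = 2), followed by Klf13 at 7.86 ± 0.10, Klf16 at 7.04 ± 0.85, Klf10 at 5.64 ± 0.30, Klf11 at 2.71 ± 0.17, Klf9 at 1.89 ± 0.04, Klf6 at 1.59 ± 0.14 and Klf3 at 1.39 ± 0.05. No neighbours in that order overlapped in their libraries. At 200 nM the order was Klf1 at 430 ± 13, Klf13 at 50.1 ± 2.1, Klf6 at 23.2 ± 0.2, Klf3 at 5.14 ± 0.21, Klf11 at 3.90 ± 0.30, Klf16 at 2.64 ± 0.43, Klf9 at 1.20 ± 0.10 and Klf10 at 0.805 ± 0.078, again without overlap between neighbours. Klf6 moved from the seventh to the third place and Klf10 from the fourth to the eighth. At 100 nM Klf11 and Klf10 overlapped and so did Klf10 and Klf3, at 150 nM Klf11 and Klf16, and at 25 nM Klf6 and Klf9.

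Shares were taken of the summed CPM per kilobase of the 9 members, with Klf2 entered as 0 although it may not have been countable. Klf1 held 83.7% of that sum at 0 nM and 83.2% at 200 nM, and between 83.7% and 85.4% at the other doses. The share of Klf13 went from 4.56% to 9.69% and that of Klf6 from 0.925% to 4.49%, while Klf16 went from 4.09% to 0.511% and Klf10 from 3.28% to 0.156%. With the longest transcript as the length in place of all exons, an alternative chosen after the data were seen, Klf3 was at 3.0 rather than 1.39 CPM per kilobase at 0 nM and took the fifth place there, with Klf10 the third and Klf16 the fourth, and the order at 200 nM was the same.

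**Figure D3:**
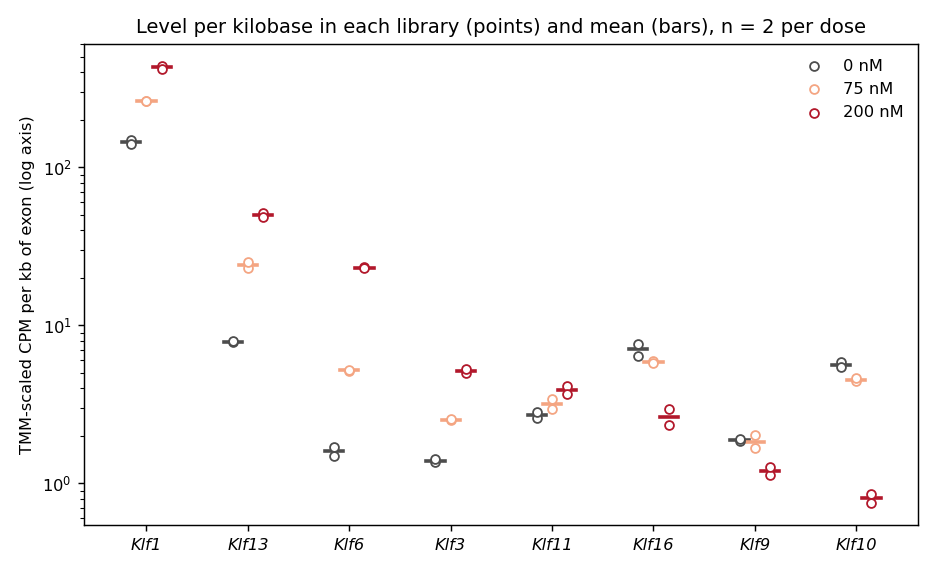
TMM-scaled CPM per kilobase of exon (log axis) of 8 Kruppel-like factors at 0, 75 and 200 nM; points are the 2 libraries of a dose and bars their mean. Klf1 was the highest member at each of the 3 doses, and Klf6 lay below Klf10 at 0 nM and above it at 200 nM.

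Over the 16 libraries the log2 CPM of Klf1, Klf3, Klf6 and Klf13 went together, with Pearson correlations between 0.969 and 0.985 for the 6 pairs, and Klf9, Klf10 and Klf16 with correlations between 0.903 and 0.935 for the 3 pairs. These libraries share the dose series, in which most genes moved, so such values are a description only. Genes most like each member were taken by the highest Pearson correlation over the same libraries among 6131 candidates. Those of Klf1 were Reep5 (0.997), Pcyt1b (0.997) and Ehbp1l1 (0.996), of Klf13 the globin entries Beta-s and Hba-a2 and the red cell membrane gene Gypc (0.999, 0.999 and 0.998), and of Klf6 Il4 (0.997), Cnppd1 (0.996) and Epb4.1 (0.996). Klf3 was most like Cdkn3 (0.989), Dnajb2 (0.989) and Tubb3 (0.988). Among the members that fell, Klf10 was most like Tuba1b (0.991), Phf6 (0.989) and Dna2 (0.988), Klf16 like Selrc1 (0.990), Rad1 (0.986) and Apex1 (0.986) and Klf9 like Txndc5 (0.968), Eral1 (0.961) and Tra2a (0.960). Klf11 had the lowest correlations, with Gmeb2 at 0.923, Arhgap21 at 0.913 and Htt at 0.912.

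Few other genes of the family had enough counts to be tested. Of 17 other Kruppel-like and Sp genes, 10 had no counts in any library, among them Klf8 and Klf12, the CtBP-dependent relatives of Klf3, and the activators Klf4 and Klf5. As for Klf2, whether reads of these genes could be counted is not known, so the 0 does not show that they were silent. Only Sp1, Sp2, Sp3 and Sp4, the ubiquitous factors of GC boxes, were tested. At 200 nM Sp2 rose from 20.3 ± 0.1 to 33.1 ± 0.4 CPM and Sp4 from 16.1 ± 0.1 to 26.6 ± 2.7 CPM (log2 fold changes 0.71 ± 0.09 and 0.72 ± 0.13). Sp3 was at 0.16 ± 0.06 and called higher (adjusted p = 0.0205), and Sp1 at 0.10 ± 0.08 was not called. With library size alone Sp1 and Sp3 turned to -0.28 and -0.22 and were called lower, with the median of all genes tested at -0.36.

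Cofactors that Kruppel-like factors recruit had 5 genes higher and 7 lower of 15 tested at 200 nM, a share near the 40.5% and 39.5% of all genes tested, so that the count says nothing particular about cofactors. The median log2 fold change was -0.30 (0.02 for all genes tested), and library size alone gave 4 higher, 9 lower and a median of -0.68. With that scaling all genes tested had 2819 higher, 5397 lower and a median of -0.36. The smallest adjusted p-values were those of Wdr5, Sin3b, Hdac1 and Smarca4. Wdr5, a subunit of histone methyltransferase complexes, fell by 1.5 ± 0.05 on the log2 scale (standard error). Sin3b, a SIN3 scaffold, rose from 81.9 ± 4.3 to 252 ± 4 CPM (SD, n = 2). The deacetylase gene Hdac1 fell by 1.20 ± 0.07 and the chromatin remodeller Smarca4 by 0.67 ± 0.04, again on the log2 scale. Named after their values were seen, Sin3a, the scaffold used by the Klf10 and Klf13 group, fell from 92.9 ± 5.6 to 46.9 ± 2.6 CPM, and Ctbp2, a corepressor of Klf3, fell from 12.2 ± 2.0 to 1.92 ± 0.68 CPM. Its relative Ctbp1 was at 44.9 ± 0.4 and 49.7 ± 1.0 CPM and was not called (log2 fold change 0.14, and -0.24 and called lower with library size alone). Cofactors that rose, named likewise, were Kat2b (1.90 ± 0.17), Crebbp (1.03 ± 0.08), Ncor1 (0.64 ± 0.05) and Ep300 (0.39 ± 0.07, and 0.01 and not called with library size alone). The other lower genes of the list were Hdac3 (-0.57 ± 0.05) and Fhl3 (-1.77 ± 0.25).

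Erythroid genes known as KLF1 targets had 19 higher and 3 lower of 22 tested at 200 nM, beside 40.5% and 39.5% of all genes tested. Their median was 2.53, and library size alone gave the same counts with a median of 2.15 (-0.36 for all genes tested). At 12.5 nM 2 of them were higher and 1 lower (0.278% and 0.228% of all genes tested), at 25 nM 9 were higher and 0 lower (3.0% and 1.02%), and 50 nM had 20 higher and 1 lower (18.8% and 14.7%). The anion exchanger Slc4a1 (6.33 ± 0.04), the first enzyme of erythroid heme synthesis Alas2 (7.04 ± 0.04) and beta-spectrin Sptb (3.20 ± 0.03) were among the genes with the smallest adjusted p-values. The lower genes, named after their values were seen, were the adhesion receptor Cd44 (-1.96 ± 0.06), the fetal globin repressor Bcl11a (-0.71 ± 0.05) and the cell cycle factor E2f4 (-0.96 ± 0.09). The listed genes Aqp1 and Bcam had no counts in any library, and whether they could be counted is not known. Many genes of this list are also known targets of GATA1, and the counts do not separate the factors.

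Lists around the hormone- and TGF-beta-inducible members held called genes in both directions, as did all genes tested (40.5% higher and 39.5% lower). With library size alone, all genes tested had 2819 higher, 5397 lower and a median of -0.36. Glucocorticoid-related genes, set beside Klf9, had 5 higher and 2 lower of 9 tested (median 0.76, with library size alone 4 higher, 3 lower and a median of 0.38). Nr3c1, the gene of the glucocorticoid receptor itself, was among the lower genes (-0.44 ± 0.08, named after its value was seen). The phosphatase gene Dusp1 rose by 4.05 ± 0.10, Ddit4 by 2.06 ± 0.19 and Cited2 by 1.5 ± 0.15, and Fkbp5, a cochaperone of the glucocorticoid receptor, fell by 2.26 ± 0.23. TGF-beta pathway genes, set beside Klf10 and Klf11, had 2 higher and 5 lower of 12 tested (median -0.12, with library size alone 1 higher, 7 lower and a median of -0.50). The corepressor Tgif1 fell by 3.54 ± 0.30, Skil by 1.42 ± 0.16 and the receptor Tgfbr1 by 0.63 ± 0.10, while Ski rose by 1.37 ± 0.15. The receptor gene Tgfbr2 had no counts in any library.

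**Figure D4:**
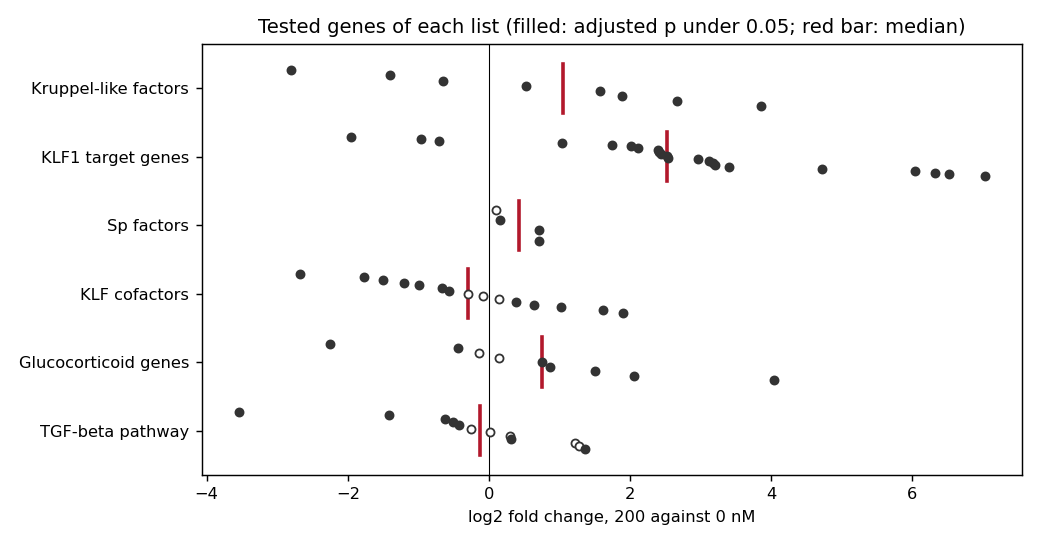
Log2 fold change at 200 against 0 nM (horizontal axis) of the tested members of each list (rows), filled where the adjusted p was under 0.05 and open where it was not, with the median as a red bar. The 8 Kruppel-like factors had a median of 1.05 and the 22 KLF1 target genes one of 2.53. The cofactors and TGF-beta genes had medians of -0.30 and -0.12. With library size alone these 2 lists were at -0.68 and -0.50, where all genes tested were at -0.36.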

How the data were processed

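RNA of G1E-ER4 cells was sequenced with Smart-seq2, per the labels' protocols, a method that keeps no strand and uses no molecular identifiers. For 16 libraries, unnormalised counts of reads were deposited by the authors, with gene symbols as row names. The submitters' processing notes name bcl2fastq, STAR and mm10. Not given in the sources used here are versions, the counting program and the annotation. Reads that match several genes may have been dropped or split, and an overlapping opposite-strand gene cannot be separated.

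Genes were kept by filterByExpr, scaled by TMM and tested in all 16 libraries with edgeR 4.0.16 (quasi-likelihood, robust, dose as a factor) in R 4.3.3. P-values were adjusted by Benjamini-Hochberg over 10080 genes per contrast, and 0.05 was the threshold. The standard error is the log2 fold change divided by the square root of F. A spread given with a log2 fold change is this standard error, and one given with CPM is the SD of the 2 libraries. A peak or dip took the larger p of the contrasts with 0 and 200 nM. Midpoint doses used log2 CPM with a prior count of 2 made monotone over dose. The fit was run on simulated data in which few genes changed, at 200 nM alone. That run does not check the scaling where most genes move.

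Named were the members, the 4 tested genes of each list with the smallest adjusted p at 200 nM, and for each member the 3 genes of highest correlation, among those called in the F test, whose mean at their highest dose reached 20 CPM, leaving out members, unnamed gene models and mitochondrial genes. Members and lists were chosen with earlier results of these data known. Of the 26 listed KLF1 targets 24 were matched, Dmtn and Epb42 by older symbols. Some genes that this rule names are not reported here. Alternatives were DESeq2 1.42.0 and its size factors, library size alone, no filter, a replicate block and leaving out each library. The 2 libraries of a dose differed beyond counting error at every dose (chi-square per degree of freedom from 1.66 to 3.82).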

Additional observations from a re-analysis of the deposited data

How the results depend on the processing

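Over all settings no called value of a member changed direction. The replicate numbers did not pair the libraries (correlation of replicate differences between doses from -0.06 to 0.10 over 28 pairs of doses), and with the replicate block all 8 tested members were called at 200 nM and 112 of 112 member values kept their side of the threshold. With library size alone, members called lower were 2 at 75 against 0 nM, 2 from 75 to 100 nM and 2 from 150 to 200 nM. That scaling called 3811 of all genes tested lower at 75 nM in place of 2715, so the count says nothing particular about the members. Shares of all genes are not given here for the single steps, for the run without a filter or for DESeq2. Library size alone also called 1 member, as higher, from 12.5 to 25 nM. Sp factors then had 2 lower and TGF-beta genes 1 higher. Midpoint doses were 63.4 nM for Klf1, 65.8 nM for Klf3, 79.0 nM for Klf6 and 52.1 nM for Klf13. DESeq2 size factors also gave 2 members lower at 75 nM, through Klf16, beside 2917 of all genes tested. Without a filter 1 member, Klf1, was called, as higher, at 12.5 nM (0.15, adjusted p = 0.0124). DESeq2 called 0 members lower from 75 to 100 nM, where 1 had been, and did not call Klf11 at 150 nM (adjusted p = 0.0749) or Klf3 from 50 to 75 nM (0.0564). With DESeq2 102 member values kept their side of the threshold and 3 lost their call, and member values without an adjusted p were left out.

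With each library left out in turn, 1765 of 1792 member values kept their side of the threshold. Members called were 0 to 1 at 12.5 nM, 1 to 2 at 25 nM and 0 to 2 from 12.5 to 25 nM, all of them higher. Members called lower were 0 to 1 at 75 nM, 0 to 1 from 75 to 100 nM and 1 to 2 from 100 to 150 nM. Over all genes tested, 17 to 60 were called at 12.5 nM and 190 to 469 at 25 nM, against 51 and 405 with all libraries. TGF-beta genes called higher were 1 to 3. The step of Klf10 from 75 to 100 nM was lost without any 1 of the 4 libraries of those doses, and that of Klf13 from 12.5 to 25 nM likewise. The step of Klf3 from 50 to 75 nM was lost without 50 nM replicate 1 or 75 nM replicate 2, and Klf11 at 150 nM without 0 nM replicate 1 or 150 nM replicate 1. The causes were not tested. Klf9, Klf10 and Klf16 had the fewest counts at the top doses, 37 to 93 per library at 200 nM, and their values there are the least precise.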
